A study of Rattus norvegicus with 12 samples.

Results

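The genes described here encode the subunits of the proteasome, in rat laryngeal muscle with and without a cut recurrent laryngeal nerve. They are all genes whose single array symbol is Psma, Psmb, Psmc, Psmd, Psme or Psmf followed by a number: 41 of the 14329 genes measured. Of these 41, grouped by symbol alone, 14 were counted with the constitutive 20S core, 3 with the immunoproteasome (Psmb8, Psmb9 and Psmb10), 20 with the 19S regulatory particle and 4 as activators. The 20S group thus includes Psmb11, known from thymus cortex, and the 19S group includes assembly chaperones such as Psmd9. One probe set that the annotation shares between Psma3 and Psma3l was left out by the rule, and Psma8 and Psmf1 were not analysed here. Expression was measured on 12 whole-transcript arrays, 3 per group, from male F344 rats operated on under ketamine and xylazine anaesthesia. The muscles were the posterior cricoarytenoid (PCA), the abductor that opens the glottis, and the adductor complex (AC), which closes it, taken 1 week after surgery. PCA injury and AC injury came from rats in which the nerve was cut on one side and 1 cm of it taken out; PCA control and AC control came from rats given the same approach with the nerve left whole. The sources used here give neither the age of the rats nor the side of the sampled muscle. The labels count 10 animals per surgery group but do not tie arrays to animals or say whether tissue was pooled, so the p-values speak to variation among these arrays only, part of which may be technical. Nor do the labels say whether PCA and AC arrays share rats. The tests over both muscles treat all arrays as independent.

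The proteasome degrades proteins marked with ubiquitin. Its barrel-shaped 20S core has outer rings of alpha subunits (Psma genes) and inner rings of beta subunits (Psmb genes), of which Psmb5, Psmb6 and Psmb7 encode the catalytic ones. The 19S particle, built of ATPases (Psmc genes) and other subunits (Psmd genes), recognises ubiquitin, unfolds the substrate and feeds it into the core. In leukocytes, and in other cells exposed to interferon, Psmb8, Psmb9 and Psmb10 replace Psmb5, Psmb6 and Psmb7 in newly built cores; this immunoproteasome is known for making peptides for MHC class I presentation. In wasting muscle the proteasome is known for the breakdown of contractile proteins.

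Skeletal muscle markers were abundant in all arrays, but in PCA 6 of 11 fell and 0 rose, with a median change of -0.51. Their mean per array was 12.65 to 12.79 on the log2 scale in PCA controls and 11.78 to 12.50 in injured PCA. In AC 0 of 11 passed in limma, 1 was lower at an unadjusted p under 0.05, and the means were 12.32 to 12.58 in controls and 12.07 to 12.28 after injury. Array medians over all probe sets lay between 7.11 and 7.17, and the number of arrays limits the precision. Transcripts of 13 thyroid and parathyroid genes averaged 6.15 to 7.17 in 9 arrays, but PCA control 1 (10.03), PCA injury 2 (9.80) and AC injury 2 (8.42) were higher. Squamous epithelium markers stood at 7.86 to 9.70 in PCA controls and at 10.11 to 10.69 in injured PCA, against 10.28 to 11.07 in the 6 AC arrays. In PCA 10 of 11 adipocyte and 10 of 12 cartilage markers fell, in AC 5 of 11 granulocyte and red cell markers fell, and 0 of 5 endothelial markers passed in limma in either muscle, with 2 of them higher in AC at an unadjusted p under 0.05. Over all genes 13.3% rose and 12.5% fell in PCA, and 1.15% rose and 0.761% fell in AC. At an unadjusted p under 0.05 in limma, 11.3% of all genes were higher and 8.93% lower in AC.

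The immunoproteasome genes rose after nerve injury, and most of the other proteasome genes did not pass the test in either muscle. Averaged over both muscles, Psmb8 rose by 0.49 ± 0.08 on the log2 scale (1.40-fold; adjusted p = 0.00148), Psmb9 by 0.45 ± 0.08 (1.37-fold; adjusted p = 0.0026) and Psmb10 by 0.30 ± 0.06 (1.23-fold; adjusted p = 0.00303), with 6 injured against 6 control arrays. Here and below, a value written a ± b is a log2 difference with its standard error from limma, and adjusted p is limma's, by Benjamini-Hochberg over all 14329 genes, with 0.05 as the threshold. In this averaged comparison 5 of 41 proteasome genes passed, against 26.4% of all genes. The other passing genes, Psmd12 (-0.23 ± 0.08; adjusted p = 0.0446) and Psme4 (-0.18 ± 0.04; adjusted p = 0.0107), fell. The 38 genes outside the immunoproteasome had a median change of 0.01 and ranged from -0.23 to 0.17. Each immunoproteasome gene kept its call and its direction in all 22 alternative analyses of this comparison, which included leaving out each array, whereas the count of 5 became 8 without PCA injury 3. The averaged Psmd12 call was lost in 13 of 22 alternatives and kept in 2 of the 12 fits that left out 1 array (adjusted p 0.0225 to 0.174 over all 22). The averaged Psme4 call was lost in 2 of 22.

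Psmb8 encodes the inducible chymotrypsin-like subunit. Its log2 level was 8.20, 8.45 and 8.33 in PCA controls 1 to 3, and 9.0, 8.64 and 8.71 in the injured PCA. It was 8.05, 8.26 and 8.27 in AC controls, and 8.56, 8.76 and 8.80 in injured AC. Every injured array lay above every control array, across muscles as well as within them. The rise was 0.46 ± 0.11 in PCA (adjusted p = 0.0136) and 0.51 ± 0.11 in AC (adjusted p = 0.0488).

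Psmb9 encodes the inducible counterpart of Psmb6. It stood at 8.80, 8.88 and 8.72 in PCA controls and at 9.54, 9.24 and 9.25 in injured PCA. The AC controls gave 9.04, 8.94 and 8.99, and injured AC gave 9.20, 9.61 and 9.23. Again no injured array overlapped a control, and the highest values were those of PCA injury 1 and AC injury 2. The change was 0.54 ± 0.12 in PCA (adjusted p = 0.00674), the largest of the 41 genes there, and 0.36 ± 0.12 in AC, where it did not pass (adjusted p = 0.126).

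Psmb10 encodes the inducible trypsin-like subunit. Its level was 8.01, 8.23 and 8.07 in PCA controls against 8.44, 8.28 and 8.32 in injured PCA, and 7.95, 8.07 and 8.08 in AC controls against 8.34, 8.47 and 8.37 in injured AC. The gap between PCA control 2 and PCA injury 2 was the narrowest of these comparisons, but the groups did not overlap. Psmb10 rose by 0.24 ± 0.08 in PCA (adjusted p = 0.0468) and by 0.36 ± 0.08 in AC (adjusted p = 0.0499). In all, 3 of 3 immunoproteasome genes passed as higher in PCA, against 13.3% of all genes, and 2 of 3 in AC, against 1.15%. The AC calls and that of Psmb10 in PCA lie close to the threshold: both AC calls were lost, for example, when each array was centred on its median, and Psmb10 in PCA passed in 5 of 23 alternatives (adjusted p 0.0252 to 0.56). Psmb8 in PCA narrowly missed the threshold without PCA control 1 (0.39, adjusted p = 0.0516), without PCA injury 1 (0.35, adjusted p = 0.0521) and without the 3 arrays high in thyroid transcripts (0.47, adjusted p = 0.0541). With the squamous epithelium score as a covariate neither Psmb8 (0.50, adjusted p = 0.221) nor Psmb9 (adjusted p = 0.181) passed in PCA. That score did not overlap between PCA controls (up to 9.70) and injured PCA (from 10.11), so this fit separates it poorly from injury there.

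**Figure D1:**
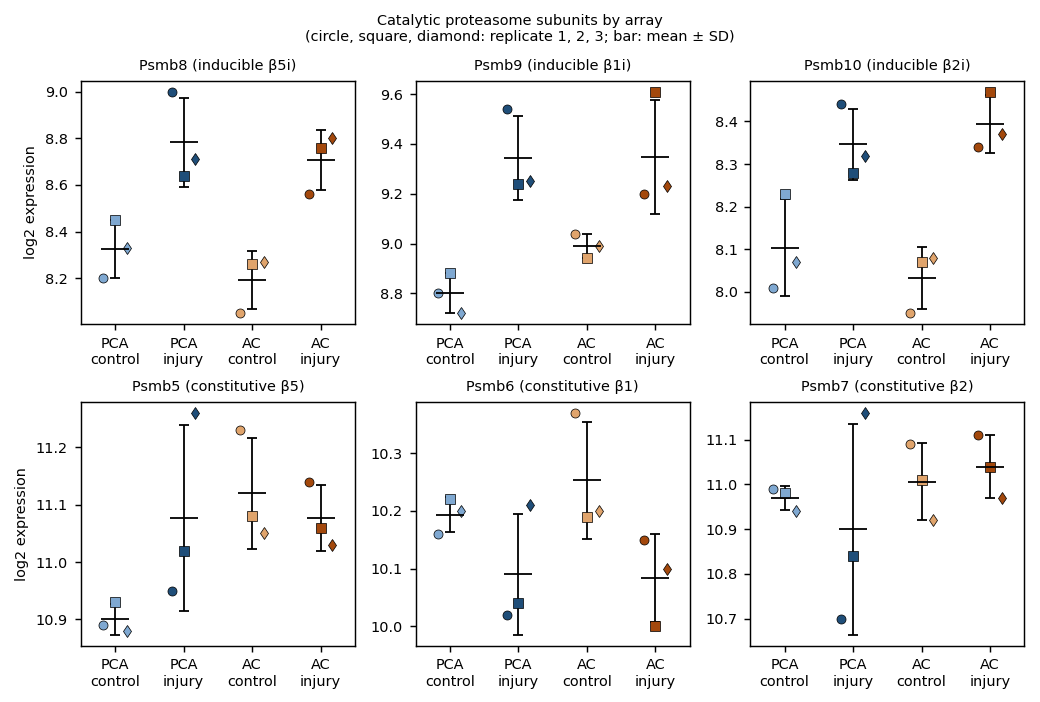
Log2 expression of the inducible catalytic subunits (upper row) and of the constitutive subunits they replace (lower row) in each of the 12 arrays, by group; symbols are replicates, bars the mean ± SD of 3 arrays. For Psmb8, Psmb9 and Psmb10 every injured array lies above every control of the same muscle, and for Psmb6 in AC every injured array lies below.

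The sequences upstream of these genes are shown because the 3 genes moved together and because their promoters are known targets of interferon signalling. RefSeq's promoter table (build GRCr8) matched 36 of the 41 genes, and the 250 bases before the annotated start were searched on both strands. The motifs were the interferon regulatory factor element as GAAA, any 2 bases and GAAA, the interferon-gamma activated site as TTCNNNGAA, an antioxidant response element as TGACNNNGC and the CCAAT box as CCAAT. Matches to different motifs were counted also where they overlapped. Each sequence runs 5′ to 3′ on the gene's strand, and capitals mark matches to the first or second motif.
Psmb8, chr20:4657032-4657281, minus strand: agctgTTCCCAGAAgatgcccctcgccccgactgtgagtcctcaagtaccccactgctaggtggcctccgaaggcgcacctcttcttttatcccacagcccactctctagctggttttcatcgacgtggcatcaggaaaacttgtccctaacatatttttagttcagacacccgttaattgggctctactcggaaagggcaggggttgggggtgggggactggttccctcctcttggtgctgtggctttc
Psmb9, chr20:4668750-4668999, plus strand: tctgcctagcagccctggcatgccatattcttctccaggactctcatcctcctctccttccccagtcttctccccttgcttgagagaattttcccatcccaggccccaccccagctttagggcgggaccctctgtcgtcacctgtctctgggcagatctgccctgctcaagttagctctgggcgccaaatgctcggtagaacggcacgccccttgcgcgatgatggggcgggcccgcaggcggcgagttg
Psmb10, chr19:50743293-50743542, minus strand: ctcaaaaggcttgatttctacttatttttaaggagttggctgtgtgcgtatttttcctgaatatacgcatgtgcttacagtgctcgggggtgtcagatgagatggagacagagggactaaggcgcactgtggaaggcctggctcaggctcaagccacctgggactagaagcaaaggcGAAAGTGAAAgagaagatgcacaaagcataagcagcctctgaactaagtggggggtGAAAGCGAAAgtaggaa
Psme2, chr15:33052752-33053001, minus strand: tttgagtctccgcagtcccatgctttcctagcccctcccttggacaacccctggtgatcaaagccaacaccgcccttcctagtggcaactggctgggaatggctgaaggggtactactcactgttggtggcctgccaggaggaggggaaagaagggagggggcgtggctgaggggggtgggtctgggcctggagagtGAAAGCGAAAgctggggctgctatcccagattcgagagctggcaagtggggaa
Psmb10 held the interferon regulatory factor element at 73 and at 17 bases before its start, and Psmb8 held an interferon-gamma activated site at 245 bases. Psmb9 held none of the 4 motifs in this window, which says only that these letters are absent there. Psme2, an activator gene also known as interferon-inducible and shown for comparison, held the first motif at 53 bases. Of all 33469 promoters in the table, 3.41% held the first motif in the same window, 7.67% the second, 10.1% the third and 34% the CCAAT box. Among the 12 constitutive 20S genes matched, 2 held the first motif (Psma4 and Psmb3), 0 the second, 3 the third (Psmb2, Psmb5 and Psmb6) and 8 a CCAAT box. Among the 17 matched 19S genes these counts were 1, 3, 2 and 7, and among the 4 activators 1, 0, 1 and 1. In the gene order of that annotation Psmb8, Tap1 and Psmb9 are direct neighbours among MHC genes on chromosome 20, Psmb10 lies on chromosome 19, and Psmb5 and Psmb11 are neighbours on chromosome 15.

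None of the constitutive catalytic subunits that these genes replace (Psmb5, Psmb6 and Psmb7) passed in either muscle. Psmb5 stood at 10.89, 10.93 and 10.88 in PCA controls and at 10.95, 11.02 and 11.26 in injured PCA; in AC it was 11.23, 11.08 and 11.05 in controls and 11.14, 11.06 and 11.03 after injury. The injured PCA lay above its controls without passing (0.18 ± 0.09; adjusted p = 0.173), and in AC the groups overlapped (-0.04 ± 0.09; 95% interval -0.24 to 0.15). Psmb6 was 10.16, 10.22 and 10.20 in PCA controls, 10.02, 10.04 and 10.21 in injured PCA, 10.37, 10.19 and 10.20 in AC controls, and 10.15, 10.00 and 10.10 in injured AC. Its injured AC arrays were all below their controls (-0.17 ± 0.08; adjusted p = 0.26), and its PCA change was -0.10 ± 0.08 with a 95% interval of -0.28 to 0.07. Psmb7 ranged from 10.94 to 10.99 in PCA controls and from 10.70 to 11.16 in injured PCA, where injury 1 was lowest and injury 3 highest, and from 10.92 to 11.11 over all AC arrays. Its changes were -0.07 ± 0.11 in PCA (95% interval -0.30 to 0.16) and 0.03 ± 0.11 in AC (95% interval -0.20 to 0.27).

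The shift between each inducible subunit and the one it replaces was then read within each array. Since probe sets differ in brightness, only the change of this log2 difference between groups carries information. Psmb9 minus Psmb6 went from -1.36, -1.34 and -1.48 in PCA controls to -0.48, -0.80 and -0.96 in injured PCA, and from -1.33, -1.25 and -1.21 in AC controls to -0.95, -0.39 and -0.87 in injured AC. It did not overlap between groups in either muscle, with a shift of 0.65 in PCA and 0.53 in AC. Psmb8 minus Psmb5 shifted by 0.56 in AC, without overlap, and by 0.28 in PCA, where injury 3 and control 3 were both at -2.55. Psmb10 minus Psmb7 shifted by 0.33 in AC, from -3.14, -2.94 and -2.84 to -2.77, -2.57 and -2.60. In PCA it shifted by 0.31, and injury 3 (-2.84) lay within the control range of -2.98 to -2.75. Within one muscle an exact two-sided permutation test of 3 against 3 arrays cannot go below p = 0.1, which was the value for all 3 pairs in AC and for Psmb9 minus Psmb6 in PCA; the other pairs in PCA gave exact p = 0.3 (Psmb8) and p = 0.2 (Psmb10). Adjusted over the 3 pairs, these exact p-values were 0.1 in AC and 0.3 in PCA. Permuting within muscle over both muscles, the average shifts were 0.42, 0.59 and 0.32 for the Psmb8, Psmb9 and Psmb10 pairs, with exact p = 0.015, 0.005 (the smallest possible) and 0.015, and 0.015 for each after adjustment over the 3 pairs. This permutation takes the muscles as independent. If PCA and AC arrays share rats, which the labels do not say, fewer arrangements are valid and these p-values can be too small.

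**Figure D2:**
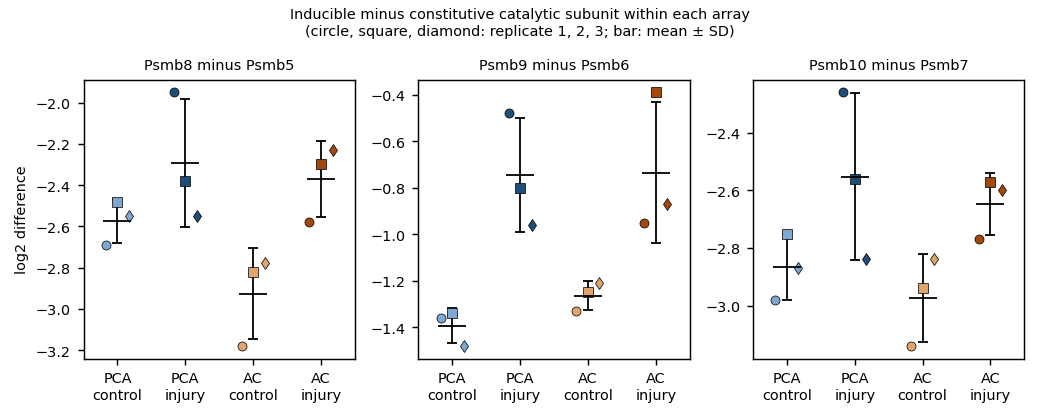
Log2 level of each inducible catalytic subunit minus that of the constitutive subunit it replaces, within each of the 12 arrays by group; symbols are replicates, bars the mean ± SD of 3 arrays. The group means are higher after injury, by 0.28 to 0.65, and in PCA injury 3 the Psmb8 and Psmb10 differences (-2.55 and -2.84) lie among the PCA controls.

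In PCA, 6 of 41 proteasome genes passed, against 25.8% of all genes: the 3 immunoproteasome genes as higher, and Psma7, Psmd12 and Psme4 as lower, against 12.5% of all genes lower. This count was 2 without PCA control 1 or without PCA injury 1, 3 without PCA control 3, AC control 3, AC injury 1 or AC injury 2, and 1 without the 3 arrays high in thyroid transcripts. With the squamous epithelium score as a covariate it was 0, and 458 genes in all passed then. In AC, 2 of 41 passed (Psmb8 and Psmb10), against 1.91% of all genes, and 0 of 41 were lower, against 0.761%, with 0 lower at an unadjusted p under 0.05 in limma, against 8.93% of all genes. The AC count was 0 in the fits without any single AC control, without AC injury 2 or 3, and without PCA control 1, 2 or 3 or PCA injury 2, and 1 without AC injury 1; PCA arrays bear on it only because all 4 groups set the residual variance. The injured arrays lay wholly above their controls for 8 of 41 genes in PCA (18.2% of all genes) and 7 in AC (15.3%), and wholly below for 4 in PCA (18.8%) and 1 in AC (13.1%).

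**Figure D3:**
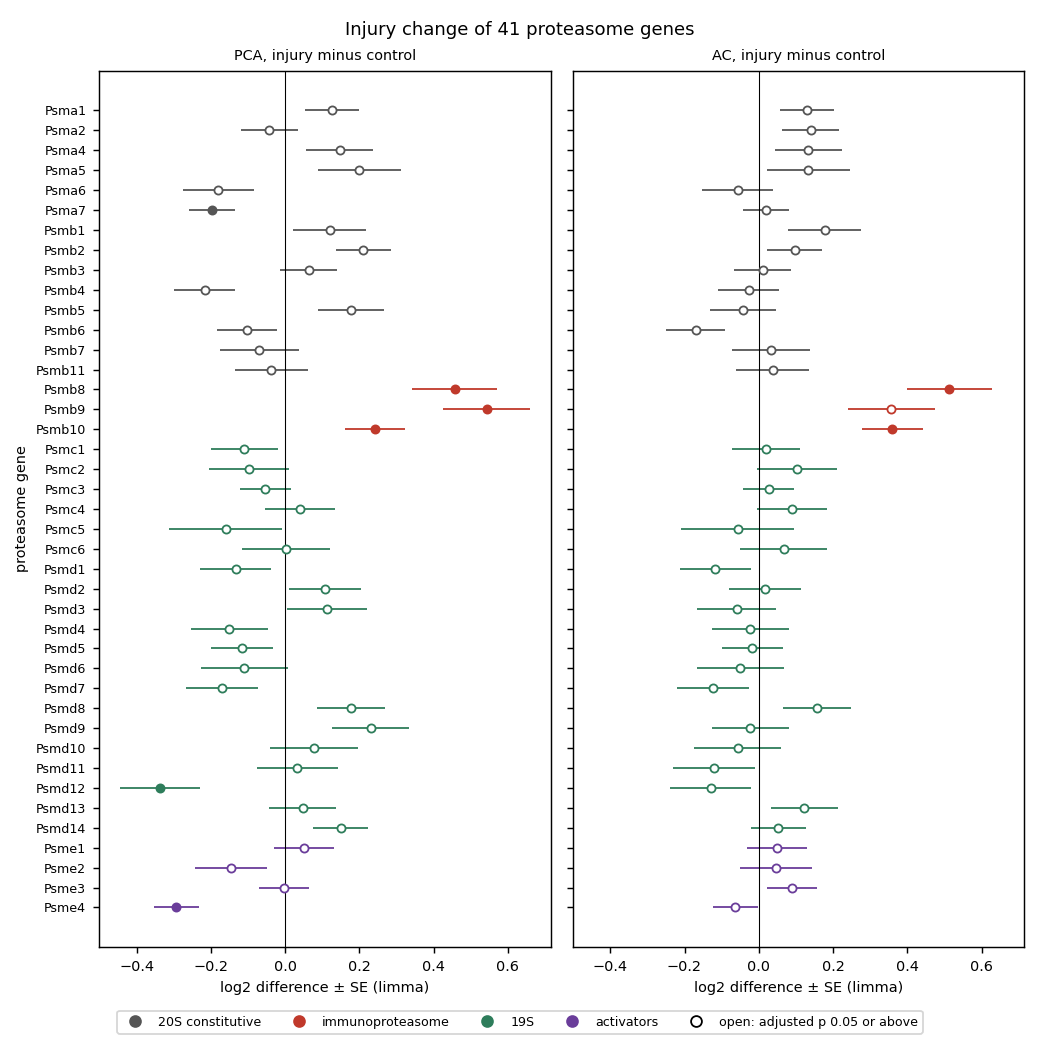
Log2 difference between injured and control arrays, with its limma standard error, for each of the 41 proteasome genes in PCA (left) and AC (right); colours give the class and filled points have an adjusted p under 0.05. The immunoproteasome genes stand at 0.24 to 0.54 in PCA and 0.36 to 0.51 in AC, and the other genes between -0.34 and 0.23 in PCA.

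Of the 14 constitutive 20S genes, 0 rose and 1 fell in PCA, against 13.3% and 12.5% of all genes, with a median change of 0.01 and a range of -0.22 to 0.21; over all genes the median was -0.03. Psma7, an alpha-ring subunit, was the one that fell, from 9.18, 9.15 and 9.12 to 8.90, 8.95 and 9.01 (-0.20 ± 0.06; adjusted p = 0.0386), without overlap. It was at 9.05, 9.02 and 8.96 in AC controls and at 9.0, 9.02 and 9.07 in injured AC (0.02 ± 0.06), so those groups overlapped. The PCA call of Psma7 was lost in 13 of 23 alternatives, among them the fits without any single PCA control. Psmb2, a structural beta subunit, was higher in all injured PCA arrays (11.33, 11.25 and 11.50) than in the controls (11.15 in each), but its change of 0.21 ± 0.07 missed the threshold (adjusted p = 0.0596). Psmb4, another structural beta subunit, lay below its controls in PCA (9.78, 9.72 and 9.86 against 10.00, 9.96 and 10.05) and also did not pass (-0.22 ± 0.08; adjusted p = 0.0773). In AC 0 of 14 passed, against 1.91% of all genes. There 0 also had an unadjusted p under 0.05 in limma, against 11.3% higher and 8.93% lower of all genes, and changes ran from -0.17 to 0.18 with a median of 0.04, against 0.02 over all genes. Psma1, Psma2, Psma4 and Psmb1 were higher in each injured AC array than in any AC control by group means of 0.13 to 0.18, none passing. That is 4 of 14 genes wholly higher, with 1 wholly lower, against 15.3% and 13.1% of all genes. Psmb11, the core subunit known from thymus cortex, was dim, between 5.28 and 5.67 in all 12 arrays.

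Of the 20 genes in the 19S group, 0 rose and 1 fell in PCA, against 13.3% and 12.5% of all genes (median -0.03, range -0.34 to 0.23). In AC 0 passed, against 1.91%, with 0 at an unadjusted p under 0.05 in limma (median -0.02; range -0.13 to 0.16). The 6 ATPase genes Psmc1 to Psmc6 changed by -0.16 to 0.04 in PCA and by -0.06 to 0.10 in AC. The gene that fell was Psmd12, a subunit of the 19S lid. Its PCA controls were tightly grouped at 9.85, 9.88 and 9.88, and injured PCA stood at 9.40, 9.51 and 9.69 (-0.34 ± 0.11; adjusted p = 0.0423). The AC controls spread from 9.50 to 9.94, across the 9.52 to 9.59 of injured AC (-0.13 ± 0.11; adjusted p = 0.555). The PCA call of Psmd12 was lost in 13 of 23 alternatives, and its value ranged from -0.51 to -0.27. Psmd9, a chaperone of 19S assembly, had the highest PCA change of the class, 0.23 ± 0.10, from 8.01 to 8.15 in controls to 8.21 to 8.45 after injury, and did not pass (adjusted p = 0.129). Psmd14, the deubiquitinase of the lid, changed by 0.15 ± 0.07 in PCA and 0.05 ± 0.07 in AC, and Psmd4, a ubiquitin receptor, by -0.15 ± 0.10 and -0.02 ± 0.10. Psmd1 and Psmd2, the scaffolds of the 19S base, gave -0.13 ± 0.10 and 0.11 ± 0.10 in PCA, and Psmd7, the partner of Psmd14, gave -0.17 ± 0.10, none passing.

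Among the 4 activators, Psme4 fell in PCA. Psme4 encodes a large cap protein of the core known for degradation that does not need ubiquitin. It stood at 10.90, 10.91 and 10.95 in PCA controls and at 10.64, 10.57 and 10.67 in injured PCA (-0.29 ± 0.06; 0.816-fold; adjusted p = 0.00543). In AC it was 10.71, 10.67 and 10.65 in controls and 10.65, 10.57 and 10.62 after injury (-0.06 ± 0.06; adjusted p = 0.613), so the AC groups overlapped at 10.65. The PCA controls stood apart from the other 9 arrays, which all lay between 10.57 and 10.71. The PCA fall passed without each single array, but not without the 3 arrays high in thyroid transcripts (-0.28; adjusted p = 0.0538) or with the squamous score as a covariate (-0.30; adjusted p = 0.173). Psme1 and Psme2, whose products form the interferon-inducible cap of the core, did not pass in either muscle. Psme1 stood at 10.02, 10.11 and 9.85 in PCA controls, 10.07, 10.07 and 9.99 in injured PCA, 9.97, 10.10 and 10.11 in AC controls and 10.04, 10.17 and 10.12 in injured AC, so its groups overlapped. It changed by 0.05 ± 0.08 in each muscle (95% interval -0.13 to 0.23). Psme2 stood at 10.52, 10.32 and 10.44 in PCA controls and at 10.41, 10.31 and 10.12 in injured PCA (-0.15 ± 0.10; 95% interval -0.36 to 0.07). In AC it was 10.25, 10.13 and 10.29 in controls and 10.15, 10.39 and 10.27 after injury, and changed by 0.05 ± 0.10 (95% interval -0.17 to 0.26). Psme3, which encodes a nuclear cap protein, changed by 0.00 ± 0.07 in PCA and 0.09 ± 0.07 in AC. The PCA changes of Psme1 and Psme3 had the opposite sign with their second probe set.

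**Figure D4:**
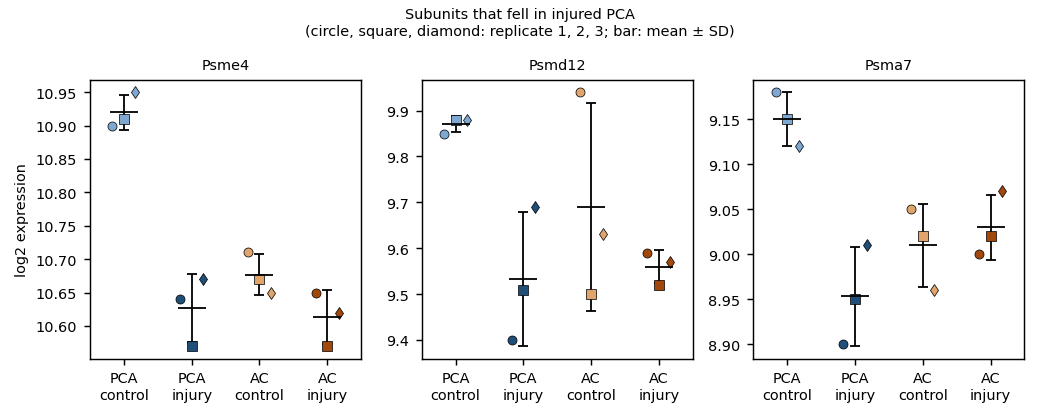
Log2 expression in each of the 12 arrays of the 3 proteasome genes that fell in injured PCA; symbols are replicates, bars the mean ± SD of 3 arrays. For Psme4 the PCA controls lie at 10.90 to 10.95 and all other arrays at 10.57 to 10.71.

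The injury effects in the 2 muscles were compared directly. For the difference of the injury effects 0 of 41 proteasome genes passed in limma, against 0.154% of all genes (0.0279% higher and 0.126% lower in AC), and 2 had an unadjusted p under 0.05 in limma, Psme4 (0.23 ± 0.09; adjusted p = 0.223) and Psma7 (0.22 ± 0.09; adjusted p = 0.262). In the uninjured muscles 1 of 41 passed, against 10.6% of all genes (3.24% higher and 7.39% lower in PCA): Psme4 was higher in PCA control than in AC control by 0.24 ± 0.06 (adjusted p = 0.0281). That call was lost without any single control array of either muscle and without the 3 arrays high in thyroid transcripts, the adjusted p then lying between 0.0531 and 0.0964. Between injured PCA and injured AC 0 of 41 passed, against 0% of all genes, and 1 had an unadjusted p under 0.05 in limma, Psma2 (-0.29 ± 0.08; adjusted p = 0.999), whose arrays were 8.73, 8.74 and 8.89 in injured PCA and 9.11, 9.0 and 9.11 in injured AC. It was the only one of 41 genes without overlap between the injured muscles, lower in PCA (4.28% of all genes), and 0 were higher (2.21%).

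Within groups, the constitutive 20S and the 19S genes varied together from array to array. In injured PCA 30 of these 34 genes were highest in injury 3, and in AC controls 32 of 34 were highest in control 1. The mean log2 level of the 19S genes was 9.23, 9.23 and 9.45 in PCA injury 1 to 3, and 9.50, 9.30 and 9.29 in AC control 1 to 3. The mean of the skeletal muscle markers was also highest in those arrays of these groups, at 11.78, 12.04 and 12.50 in injured PCA and 12.58, 12.32 and 12.44 in AC controls. The other groups differed. Among PCA controls muscle markers were highest in control 2 (12.79), where the 19S mean was lowest (9.31). In injured AC muscle markers were highest in injury 1 (12.28) and the 19S mean in injury 3 (9.41). The 3 immunoproteasome genes were highest in injury 1 of the injured PCA, the array lowest in muscle markers. Among PCA controls all 3 were highest in control 2. That array was highest of its group in muscle markers, and also in macrophage and antigen-presenting cell markers. After taking out the group means, the median Pearson correlation over the 12 arrays was 0.57 among 20S genes (91 pairs), 0.64 among 19S genes (190 pairs) and 0.59 between the classes (280 pairs). Between the immunoproteasome and the 20S genes it was -0.28 (42 pairs), and between the immunoproteasome and the 19S genes -0.33 (60 pairs), while the 3 pairs within the immunoproteasome had a median of 0.63. These arrays share one scaling step and the genes share tissue makeup, so the correlations are descriptions. The part of muscle content in this pattern was not tested.

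**Figure D5:**
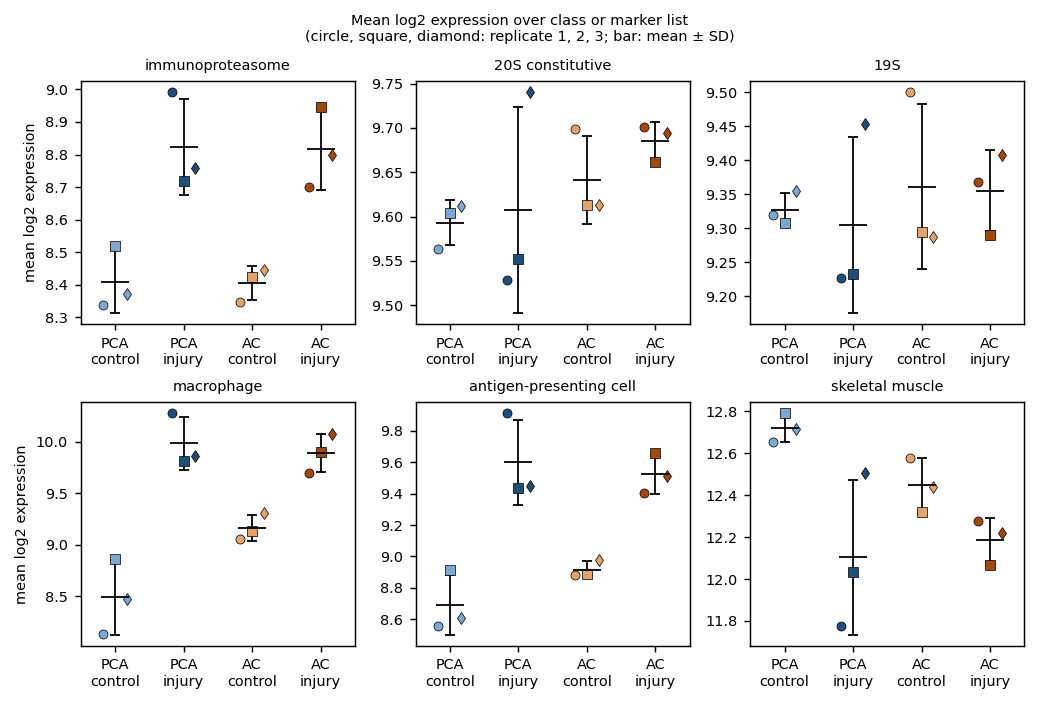
Mean log2 expression per array over 3 immunoproteasome, 14 constitutive 20S and 20 19S genes and over 3 marker lists, by group; symbols are replicates, bars the mean ± SD of 3 arrays. The immunoproteasome, macrophage and antigen-presenting cell means are higher in every injured array than in the controls of the same muscle, whereas the 20S and 19S means overlap between groups.

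Within each muscle, the macrophage and antigen-presenting cell means were higher in the injured arrays, as were the immunoproteasome genes. In PCA control against AC control 6 of 16 macrophage and 2 of 10 antigen-presenting cell markers were lower, against 7.39% of all genes. Their medians were -0.68 and -0.30. There 0 of 3 immunoproteasome genes passed (median 0.07, range -0.19 to 0.13). Psmb9 was lower in each PCA control than in any AC control (-0.19 ± 0.12, 95% interval -0.45 to 0.07), as were 15.9% of all genes. Psmb8 (0.13 ± 0.11) and Psmb10 (0.07 ± 0.08) overlapped between these groups. Of 16 measured macrophage markers 15 rose in PCA and 3 in AC, among them Cd68 (2.76 ± 0.27 and 1.28 ± 0.27) and Fcer1g, a signalling chain of myeloid receptors (2.29 ± 0.20 and 1.00 ± 0.20), and their median change was 1.33 in PCA and 0.73 in AC. Per array the mean of these markers lay at 8.14 to 8.86 for PCA controls against 9.82 to 10.28 in injured PCA, and at 9.06 to 9.31 for AC controls against 9.70 to 10.08 in injured AC. Of 10 markers of antigen-presenting cells 9 rose in PCA and 2 in AC, with a mean per array of 8.56 to 8.91, 9.44 to 9.91, 8.88 to 8.98 and 9.40 to 9.66 in the same order of groups. Of 18 lymphocyte markers 4 rose and 1 fell in PCA and 0 rose and 1 fell in AC, with means of 6.29 to 6.56, 6.55 to 6.80, 6.59 to 6.62 and 6.65 to 6.81. For comparison with these 3 lists, 13.3% of all genes rose and 12.5% fell in PCA, and 1.15% rose and 0.761% fell in AC. In PCA injury 1, where all 3 immunoproteasome genes were highest of their group, the macrophage mean (10.28) and Ptprc, the pan-leukocyte phosphatase (9.87 against 9.26 and 9.03), were highest too; within injured AC, Psmb9, Psmb10 and the antigen-presenting cell mean were highest in injury 2, and Psmb8 and the macrophage mean in injury 3. Among PCA controls all 3 immunoproteasome genes and the macrophage (8.86) and antigen-presenting cell (8.91) means were highest in control 2. Among AC controls Psmb8, Psmb10 and both of these means were highest in control 3, but Psmb9 in control 1. In bulk tissue more cells of a type and more RNA per cell cannot be told apart, and the part of immune cells in the immunoproteasome rise was not tested.

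Other genes of class I presentation, which uses the peptides the immunoproteasome makes, were read from a list. Of its 13 measured genes 3 rose in PCA, against 13.3% of all genes, and 0 passed in AC, against 1.15% higher; 1 was higher in AC at an unadjusted p under 0.05 in limma. The median change was 0.05 in PCA and 0.04 in AC. Those that rose, all close to the threshold, were Tap1, a chain of the peptide transporter that lies between Psmb8 and Psmb9 (0.40 ± 0.13; adjusted p = 0.0466), Tapbp, the tapasin that links transporter and class I molecules (0.28 ± 0.09; adjusted p = 0.0429), and the class I gene RT1-N3 (0.55 ± 0.18; adjusted p = 0.0457). Tap1 stood at 8.03, 8.26 and 7.73 in PCA controls, 8.55, 8.28 and 8.38 in injured PCA, 8.16, 8.11 and 8.09 in AC controls and 8.15, 8.48 and 8.40 in injured AC, where AC injury 1 overlapped the controls. B2m, the light chain of class I, gave 0.24 ± 0.09 in PCA and 0.27 ± 0.09 in AC and passed in neither muscle alone. It passed in the average over both muscles (0.255 ± 0.064, adjusted p = 0.0129), where 3 of the 13 genes rose, against 13.4% of all genes. Tap2, the other transporter chain and also next to Psmb8, gave 0.07 ± 0.10 in each muscle. Of 27 interferon response genes 3 rose in PCA, against 13.3% of all genes: Irf1 (0.46 ± 0.09), a factor known to drive immunoproteasome genes, Irf8 (0.89 ± 0.18), a factor of myeloid cells, and the GTPase Ifi47 (0.87 ± 0.17). At an unadjusted p under 0.05 in limma, 9 were higher and 1 lower in PCA, against 18.2% and 18.7% of all genes. In AC 0 of 27 passed, with 5 higher at an unadjusted p under 0.05 in limma (11.3% of all genes). The list's median change was 0.27 in PCA and 0.16 in AC, against -0.03 and 0.02 over all genes. Its mean was 8.08 in PCA control 2, above the other PCA controls (up to 7.47) and above all injured PCA arrays (7.62 to 7.96). That array widened the spread among PCA controls, which limits what could pass in PCA. In AC the mean was 7.34 to 7.51 in controls and 7.49 to 7.78 after injury. Irf1 was 7.69, 8.02 and 7.91 in PCA controls against 8.37, 8.37 and 8.27 in injured PCA, and 8.05, 7.98 and 8.07 in AC controls against 8.40, 8.24 and 8.31 in injured AC, without overlap in either muscle. Interferon gamma itself (Ifng) was dim in every group, controls and injured alike. Its mean was 4.65 in PCA controls, 4.83 in injured PCA, 4.48 in AC controls and 4.82 in injured AC. Ifng changed by 0.19 ± 0.09 in PCA and 0.34 ± 0.09 in AC, passing in neither muscle alone. In the average over both muscles it passed (0.262 ± 0.064, adjusted p = 0.0111), a small change at a dim level. In that average 5 of the 27 genes rose and 0 fell, against 13.4% and 13.1% of all genes.

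Of 20 genes for proteasome assembly, substrate delivery and transcriptional control, 1 rose and 2 fell in PCA, against 13.3% and 12.5% of all genes, and 0 passed in AC, against 1.91%, where 0 also had an unadjusted p under 0.05 in limma. Nfe2l2, an oxidative stress factor that can induce proteasome genes, rose from 9.80, 9.90 and 9.87 to 10.44, 10.43 and 10.57 in PCA (0.62 ± 0.08; adjusted p = 0.000507). The AC controls already stood at 10.50, 10.26 and 10.26, and PCA control minus AC control was -0.48 ± 0.08 (adjusted p = 0.00456), and the AC change was 0.06 ± 0.08. Ngly1, which activates the proteasome factor Nfe2l1 by removing its sugars, fell (-0.38 ± 0.10), as did Ufd1, which helps to extract ubiquitinated proteins from membranes (-0.30 ± 0.09). Nfe2l1 itself, the main inducer of proteasome genes when the proteasome is short, gave -0.29 ± 0.13 in PCA (adjusted p = 0.125), and Pomp, the chaperone of core assembly, 0.25 ± 0.10 (adjusted p = 0.0859). Psmg1, a further assembly chaperone, gave -0.09 ± 0.11. Of 9 ubiquitin ligases known from muscle 4 fell in PCA, against 12.5% of all genes, including Trim63 (-1.13 ± 0.21) and Fbxo32 (-0.66 ± 0.18). In AC 0 passed, with 4 lower at an unadjusted p under 0.05 in limma, against 8.93% of all genes. Skeletal muscle markers fell in PCA as well (6 of 11, median -0.51), and their part in the fall of the ligases was not tested. Of the ubiquitin genes and ubiquitin-activating enzymes only Uba1 (0.09 ± 0.07 in PCA) and Uba6 (0.16 ± 0.10) were measured under a single symbol, and neither passed.

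The 10 genes outside the family whose profile over the 12 arrays was most like the mean of the immunoproteasome genes were Septin9, Ripk3, Nek6, Arhgap9, Ifnar1, Naip6, Plekho1, Ly86, Itgal and Emilin1. Their Pearson correlations ran from 0.97 to 0.99, and from 0.84 to 0.96 after group means were taken out. Septin9, a cytoskeletal GTPase, was the most alike and changed by 0.50 in PCA and 0.43 in AC. Ripk3, the kinase of necroptosis, changed by 0.99 and 0.75, and Ifnar1, a chain of the type I interferon receptor, by 0.64 and 0.49. Itgal, an integrin chain of leukocytes, changed by 1.36 and 1.01. All 10 were chosen for this likeness, so their values are descriptions.

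Of the 41 genes, 7 had 2 probe sets, of which the brighter was used. The second probe set had the opposite sign for Psme1 and Psme3 in PCA and for Psma6 and Psmc4 in AC, and none of these values passed.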

How the data were processed

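Processed values came from 12 arrays of male rat laryngeal muscle, with groups and replicate numbers from the sample titles. The authors deposited 1 log2 value per probe set and array; per the submitters' processing notes the tools were RMA and Partek, with no version or role stated. Base 2 was inferred from RMA and from values between 2.57 and 14.04. RMA makes arrays alike in distribution, so each change is read against the rest of the array, and arrays carry no read depth.

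Of 27342 probe sets, 15103 carried a single symbol and entered the tests, while 317 with several and 11922 with none did not. RefSeq matched 15067 of the 15103 by gene ID and changed 0 symbols. The brightest probe set by mean over all arrays stood for a gene, which gave 14329 genes. One limma model (3.58.1, R 4.3.3) with a mean per group was fitted to all genes and arrays (8 residual and 3.14 prior degrees of freedom), with 6 two-sided contrasts, no filter and Benjamini-Hochberg adjustment over all genes. The fit was tested on simulated data. Plots used Python 3.11.15 and matplotlib 3.10.9.

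Members, gene lists and alternatives were chosen with earlier results of these data known. Values in every array are given for catalytic subunits and for genes that passed; other members and list genes were named by smallest p, as first listed, or to show a role, the last after their values were seen. Alternatives covered scaling, a filter at log2 6, probe set choice, prior, array weights, replicate block, groups fitted, thresholds of 0.01 and 0.1, each array left out, the 3 arrays high in thyroid transcripts left out and the squamous epithelium score as a covariate.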

Additional observations from a re-analysis of the deposited data

How the results depend on the processing

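The 3 immunoproteasome genes kept direction and call in the average over both muscles under all 22 alternatives, with adjusted p up to 0.0359. Their changes within PCA and within AC kept their sign in all 23 alternatives of each, but the calls in AC were lost in 14 (Psmb8) and 16 (Psmb10). Counts of proteasome genes passing moved by over 1.5 times as follows. In PCA, 6 became 3 with the replicate block, 3 with only the PCA groups fitted, 2 at a threshold of 0.01, 1 without the 3 arrays high in thyroid transcripts and 0 with the squamous score as a covariate. In AC, 2 became 1 with a trended prior and 0 with arrays centred on the median, with repeated quantile normalisation, with the replicate block, at 0.01, without the thyroid-high arrays and with the squamous covariate. In the average over both muscles, 5 became 3 at 0.01, without the thyroid-high arrays and with the squamous covariate, and 9 at 0.1. Between uninjured muscles, 1 became 2 with array weights and at 0.1, and 0 with the replicate block, with only the control groups fitted, at 0.01, without the thyroid-high arrays and with the squamous covariate. The fits with fewer arrays or an added term have fewer residual degrees of freedom. The squamous score also did not overlap between PCA controls and injured PCA, so that covariate is poorly separated from injury there. The cause was otherwise not tested.

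With single arrays left out the counts ran from 2 to 8 in PCA, 0 to 2 in AC, 4 to 8 in the average and 0 to 2 between uninjured muscles, and 0 throughout between injured muscles and for the muscles' difference in injury effect. The pair shifts ran from 0.11 to 0.41 (Psmb8), 0.51 to 0.75 (Psmb9) and 0.17 to 0.46 (Psmb10) in PCA, and from 0.43 to 0.66, 0.35 to 0.63 and 0.24 to 0.39 in AC.

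Sign changes were seen only for genes that did not pass. Psme1 in PCA became -0.032 with the mean of probe sets and -0.072 with the squamous covariate, and ranged from -0.022 to 0.108 with single arrays left out. Psme2 became 0.064 in PCA with the squamous covariate and -0.013 in AC without the thyroid-high arrays, and ranged from -0.013 to 0.107 in AC with single arrays left out. Over the same fits Psmb7 ranged from -0.200 to 0.030 in PCA and -0.010 to 0.075 in AC, and Psmb5 from -0.078 to 0.012 in AC. The labels do not say whether replicate numbers pair the arrays. Correlations of same-numbered deviations ran from -0.39 to 0.34, and with so few arrays per group these correlations cannot decide it. The replicate block therefore has no stated basis in the design, and pairing remains unknown. The number of arrays limits what can be called: the smallest change of a proteasome gene that passed in PCA was -0.20 (Psma7).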
